A study of Mus musculus with 21 samples.

Results

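CD8+ T cells of the mouse were compared after 48 h in medium conditioned by leukaemia cells and after 48 h in fresh medium. The comparison used 14 of the 21 arrays of the series, 7 for each medium. It covered all 19505 genes that could be named: of 22203 transcript clusters on the array, 19572 had a single gene symbol and 2631 had none, and each symbol was represented by its cluster of highest mean level over the 21 arrays. All samples shared their origin and activation. T cells were taken from the spleen of wildtype mice, activated with beads carrying antibodies to CD3 and CD28, and kept in complete RPMI medium with 2-mercaptoethanol, as far as the labels say. In the AML group the culture medium was replaced by the sterile-filtered supernatant of WEHI-3B cells, called AML medium here, which had been cultured for 48 h. WEHI-3B cells descend from a myelomonocytic leukaemia of the mouse and stand for acute myeloid leukaemia (AML), so that the group models 1 cell line. The control group received fresh medium, and the other 7 arrays of the series belong to T cells in the supernatant of dendritic cells grown from bone marrow (DC medium). Before RNA was extracted, CD8+ cells were purified from each culture on magnetic columns. Labels call the 7 samples of a group biological replicates, without a word on whether a shared number means a shared mouse or day. The comparison asks which transcripts of activated CD8+ T cells differ after exposure to what leukaemia cells release or use up.

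Supernatant of a growing cell line carries secreted proteins and metabolites and has lost part of its nutrients. T cells read such a medium through cytokine receptors, whose JAK and STAT proteins induce the feedback inhibitors of the SOCS family. Transforming growth factor beta (TGF-beta) acts through SMAD proteins and induces both the integrin chain CD103 and its own inhibitors in CD8+ T cells. Activated T cells take up much glucose, and the hypoxia-inducible factor HIF-1 raises the genes of that uptake together with other genes known from cells short of oxygen. A shortage of amino acids is read by the transcription factor ATF4, which induces amino acid transporters and synthetic enzymes.

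The values are log2 array levels, so that a difference of 1 is a 2-fold difference, and array medians lay between 5.23 and 5.4. The labelled cell type was checked against its markers. *Cd8a*, a chain of the CD8 coreceptor, was at 11.73 ± 0.10 (SD, n = 7) after AML medium and 11.69 ± 0.04 in fresh medium, and *Cd8b1*, its partner, at 11.67 ± 0.08 and 11.7 ± 0.09. Neither they nor any other of the 6 T cell, 5 B cell, 3 plasma cell, 5 macrophage or monocyte, 4 neutrophil, 6 dendritic cell and 5 stromal markers measured passed the limma test, and 2 of them had an unadjusted p under 0.05, which held for 14.8% of all genes tested (2889 of 19505). A description field of the labels names CXCL12-abundant reticular cells instead, against all other fields. Of the 3 markers of CD4 T cells 1 rose, *Cd4* itself, by 0.79 (SE 0.17, adjusted p = 0.0297). All 3 differed upward, by 0.17 to 0.79, and 2 had an unadjusted p under 0.05 with limma. Summed linear levels of these 3 markers ran from 344 to 653 after AML medium and from 247 to 401 in fresh medium, and their part in the results below was not tested. In bulk RNA fewer cells of a type and less RNA per cell cannot be told apart. Of the 3 NK cell markers *Eomes* rose, which CD8+ T cells also express, and the other 2 did not pass. All 3 NK cell markers differed upward, by 0.05 to 0.71, and 2 had an unadjusted p under 0.05 with limma.

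Among the 19505 genes 246 passed the test (limma, Benjamini-Hochberg adjusted p under 0.05), which is 1.26% of those tested. Of these 114 rose after AML medium (0.584%) and 132 fell (0.677%), and 26 changed at least 2-fold, 12 upward and 14 downward. With every array centred on its own median the split was 135 higher and 99 lower, and a fit to all 21 arrays called 541 genes (2.77%). The median difference over all genes was -0.01, the median rise 0.54 and the median fall -0.56. A typical call was thus small, at a median of 1.46-fold in either direction. All 7 AML arrays lay above all 7 fresh arrays for 69 genes (0.354%) and below them for 86 (0.441%), and 97 of the 246 called genes were among these. The chemokine receptor *Ccr8* showed the largest rise of a named gene, and granzyme A, *Gzma*, the largest fall.

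**Figure D1:**
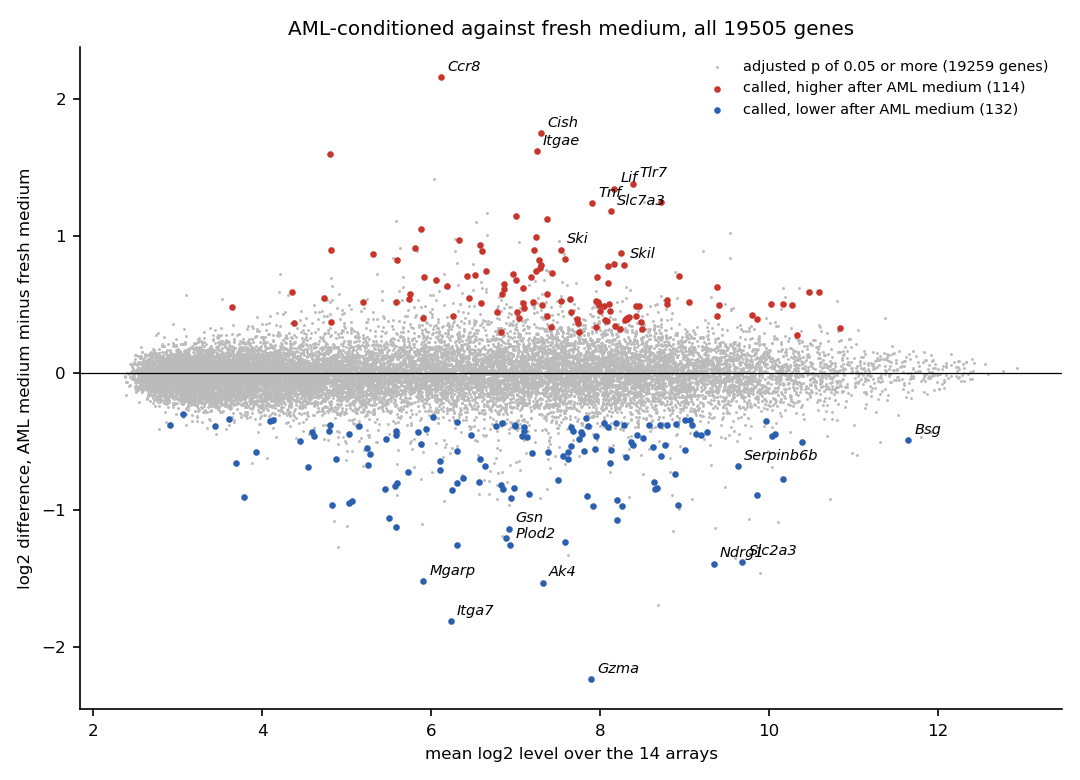
Each point is 1 gene, with its mean log2 level over the 14 arrays on the x axis and the log2 difference between AML and fresh medium on the y axis. The 114 genes called higher and 132 called lower are coloured, and most of them differ by less than 1 log2 unit.

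The 7 AML arrays did not respond to the same degree. In AML replicates 4 and 5 the called genes stood farthest from fresh medium, with a median of 0.74 and 0.86 over the 114 risers and -0.77 and -0.91 over the 132 fallers. In AML replicates 6 and 7 they stood closest, at 0.35 and 0.36 for the risers and -0.26 and -0.31 for the fallers. Of the risers 78 and 81 lay above all fresh arrays in AML replicates 6 and 7, against 106 to 111 in the other 5. Without both AML replicates 4 and 5, 74 genes passed, 42 higher and 32 lower. Leaving out 1 array at a time left between 91 genes (without fresh replicate 2) and 498 (without AML replicate 6). Other counts were 94 without AML replicate 4, 108, 119, 125 and 129 without AML replicates 5, 1, 2 and 3, and 380 without AML replicate 7. Without fresh replicates 1, 3, 4, 5, 6 and 7 they were 158, 125, 110, 132, 158 and 197. Of the 246 genes, 78 passed in each of these 14 fits, 42 of them higher and 36 lower, and these are called steady below. The word covers single omissions only, not the joint omission of AML replicates 4 and 5.

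The TGF-beta feedback genes *Ski*, *Skil*, *Pmepa1* and *Ldlrad4* rose after AML medium, and *Itgae*, a gene that TGF-beta induces in CD8+ T cells, rose in every AML array above the fresh range. Of 12 measured TGF-beta feedback genes 4 rose, 0 fell and 8 did not pass, and the list's median difference was 0.34, against -0.01 over all genes. All 4 were steady, as was *Itgae*. *Ski* encodes a corepressor that binds SMAD proteins and blocks transcription of their targets. Its level was 7.84 to 8.1 (median 8.03) after AML medium and 6.95 to 7.25 (median 7.12) in fresh medium. The groups did not overlap, and *Ski* rose by 0.90 (SE 0.07, adjusted p = 2.72e-06). *Skil* encodes the related corepressor SnoN and is itself a SMAD target. It was at 8.55 to 8.82 (median 8.67) against 7.5 to 8.0 (median 7.93), again without overlap, and rose by 0.79 (SE 0.08, adjusted p = 7.1e-05). *Pmepa1* encodes a membrane protein that keeps receptor-activated SMADs from the receptor. Its level was 7.36 to 7.99 (median 7.66) after AML medium and 6.79 to 6.95 (median 6.85) in fresh medium, without overlap, and the rise was 0.82 (SE 0.09, adjusted p = 8.68e-05). *Ldlrad4*, a paralogue with the same action, was at 5.99 to 6.55 (median 6.18) against 5.01 to 5.75 (median 5.39) and rose by 0.91 (SE 0.11, adjusted p = 0.000363). *Smad7*, the inhibitory SMAD, differed by 0.36 (SE 0.11, adjusted p = 0.111) and did not pass. Without AML replicates 4 and 5 the rises of *Ski*, *Skil*, *Pmepa1* and *Ldlrad4* were 0.88, 0.74, 0.74 and 0.80.

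Among 15 TGF-beta receptors and SMADs 1 rose and 1 fell, with a list median of 0.11. *Tgfbr1*, the type I receptor, was at 7.41 to 8.27 (median 7.47) after AML medium and 6.87 to 7.27 (median 7.07) in fresh medium. It was higher in 7 of 7 AML arrays than in any fresh array and rose by 0.57 (SE 0.13, adjusted p = 0.0337). *Smad3*, the SMAD that carries the signal of this receptor, went the other way, at 8.38 to 8.93 (median 8.83) against 9.01 to 9.62 (median 9.17). It too did not overlap between the media and fell by 0.56 (SE 0.11, adjusted p = 0.0229). The call of *Smad3* was lost without AML replicate 4, fresh replicate 2 or fresh replicate 3 (adjusted p 0.0501 to 0.0598), and that of *Tgfbr1* without any of 8 arrays (0.0525 to 0.0738).

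Integrin chains changed in both directions. Of 16 measured, 1 rose and 2 fell. *Itgae* encodes CD103, which pairs with the beta 7 chain, binds E-cadherin and holds CD8+ T cells in epithelium. Its level was 7.7 to 8.43 (median 8.12) after AML medium and 5.97 to 6.91 (median 6.49) in fresh medium. It was higher in 7 of 7 AML arrays than in any fresh array, among them replicates 6 and 7 at 7.7 and 8.14, and rose 3.07-fold (1.62, SE 0.14, adjusted p = 9.24e-06). *Itga7* encodes a laminin-binding chain. It was at 4.67 to 6.09 (median 5.25) against 6.68 to 7.52 (median 7.17) and fell by 1.81 (SE 0.20, adjusted p = 0.000159), steadily, without overlap and with its lowest values in AML replicates 4 and 5. *Itgb1*, the partner chain of *Itga7*, was at 8.65 to 9.29 (median 9.0) against 9.28 to 9.52 (median 9.45). Only AML replicate 6, at 9.29, reached into the range of fresh medium, and *Itgb1* fell by 0.45 (SE 0.09, adjusted p = 0.0249). It lost its call without any of 5 arrays (adjusted p 0.0521 to 0.0548). *Gsn* encodes gelsolin, which severs actin filaments. At 5.64 to 6.9 (median 6.42) against 7.21 to 8.04 (median 7.35) it fell by 1.14 (SE 0.18, adjusted p = 0.00429), below every fresh array in 7 of 7, and was steady.

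Among 16 chemokine receptors 1 rose and 1 fell. *Ccr8* encodes a receptor found on skin-homing T cells and on regulatory T cells in tumours. Its level was 5.51 to 8.31 (median 7.51) after AML medium and 4.46 to 6.25 (median 4.88) in fresh medium. AML replicates 1 to 5 lay between 6.88 and 8.31, whereas AML replicate 6 at 5.51 fell inside the fresh range, whose top was fresh replicate 7 at 6.25. The rise was 4.46-fold (2.16, SE 0.36, adjusted p = 0.00703) and steady, and leaving out AML replicates 4 and 5 gave 1.76 (adjusted p = 0.037). *Cxcr4*, the receptor of CXCL12, was at 8.16 to 8.68 (median 8.58) against 8.75 to 9.04 (median 8.92) and fell by 0.38 (SE 0.09, adjusted p = 0.0376). Without any of 10 arrays that call was lost (adjusted p 0.0603 to 0.0886). Of 12 chemokines 1 fell, *Ccl5*, which activated CD8+ T cells store and release, by 0.80 (SE 0.19, adjusted p = 0.0425). *Ccl5* was at 7.81 to 8.56 (median 8.27) against 8.47 to 9.69 (median 8.92). Fresh replicates 1 to 3 were its highest arrays, at 9.47 to 9.69, and the call was lost without any of 10 arrays (adjusted p 0.0504 to 0.099).

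**Figure D2:**
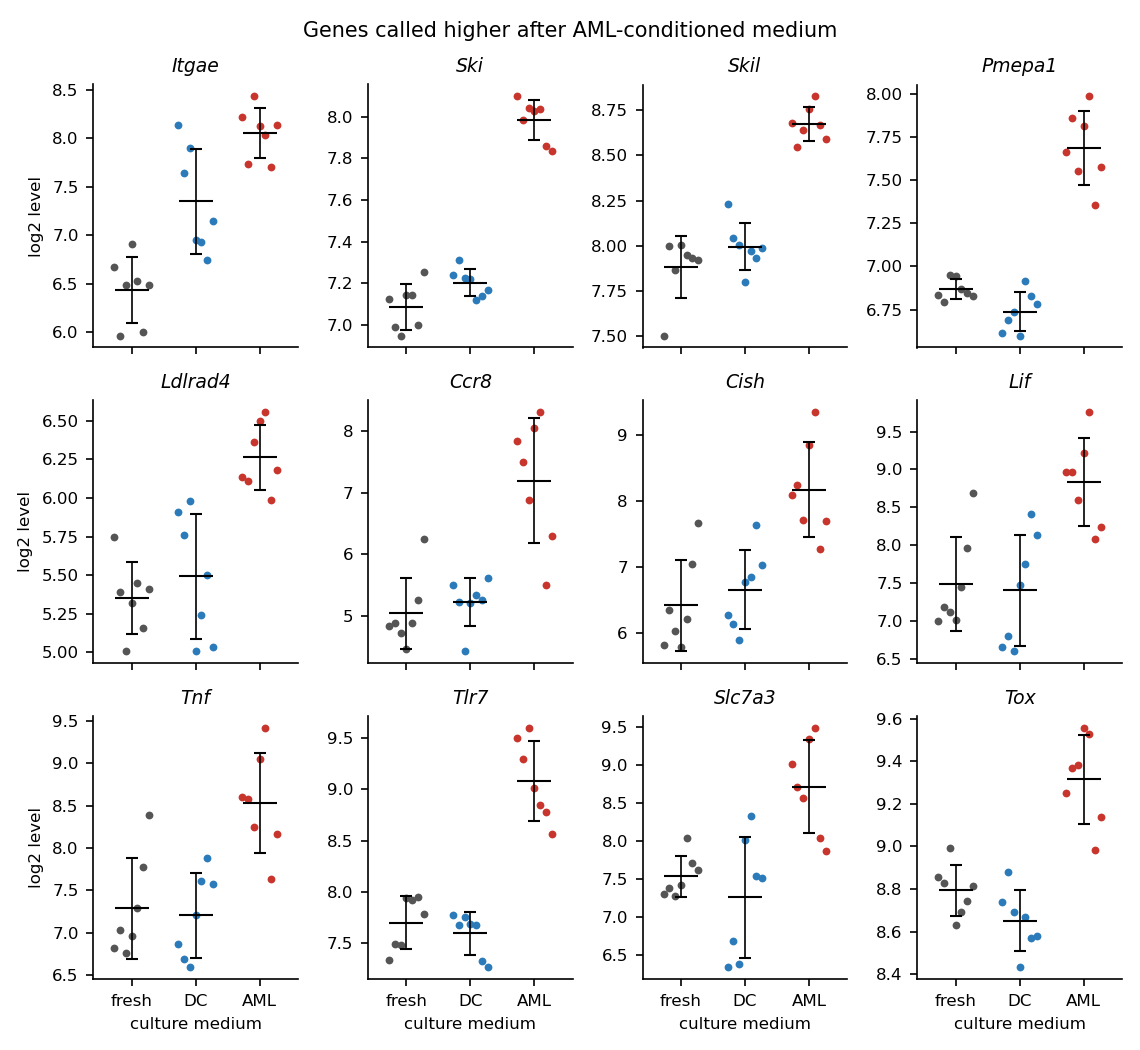
Log2 levels of 12 genes called higher after AML medium, with 1 point for each array in replicate order and bars for the mean and SD of 7 arrays. *Itgae*, *Ski*, *Skil*, *Pmepa1*, *Ldlrad4* and *Tlr7* have no overlap between AML and fresh medium, whereas 1 or more AML arrays of *Ccr8*, *Cish*, *Lif* and *Tnf* lie among the fresh arrays.

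A pair of feedback inhibitors of cytokine signalling, *Cish* and *Socs2*, rose. Of 20 genes of the STAT5 and SOCS list 2 rose and 0 fell, with a list median of 0.09, and 18 did not pass. *Cish* encodes CIS, which STAT5 induces after interleukin 2 and which dampens signals of the T cell receptor and of interleukin 2. Its level was 7.27 to 9.34 (median 8.09) after AML medium and 5.8 to 7.67 (median 6.22) in fresh medium. AML replicates 4 and 5 were highest, at 8.85 and 9.34, and AML replicate 6, at 7.27, lay below fresh replicate 7 at 7.67. *Cish* rose 3.37-fold (1.75, SE 0.31, adjusted p = 0.00997) and was steady. *Socs2*, a relative that STAT5 also induces, was at 8.29 to 9.15 (median 8.73) against 7.18 to 8.66 (median 7.62) and rose by 0.88 (SE 0.21, adjusted p = 0.0442), a call lost without any of 10 arrays (adjusted p 0.0622 to 0.0994) and with all 21 arrays in the fit (0.054). Of 26 cytokine receptor chains 1 rose, *Il6ra*, which binds interleukin 6, from 6.53 to 7.21 (median 6.88) to 7.49 to 8.06 (median 7.58). Its arrays did not overlap, and the rise of 0.79 (SE 0.11, adjusted p = 0.00165) was steady. *Il2ra*, the alpha chain of the interleukin 2 receptor and a STAT5 target, differed by 0.53 (SE 0.14, adjusted p = 0.067) and did not pass.

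The promoter of *Cish* is shown for its pair of STAT motifs, written in capitals (TTCNNNGAA, searched on both strands). RefSeq places the 300 bases at chr9:107296409-107296708 on the plus strand of GRCm38.p6, from 250 bases before the listed start site to 50 from it on.
Cish: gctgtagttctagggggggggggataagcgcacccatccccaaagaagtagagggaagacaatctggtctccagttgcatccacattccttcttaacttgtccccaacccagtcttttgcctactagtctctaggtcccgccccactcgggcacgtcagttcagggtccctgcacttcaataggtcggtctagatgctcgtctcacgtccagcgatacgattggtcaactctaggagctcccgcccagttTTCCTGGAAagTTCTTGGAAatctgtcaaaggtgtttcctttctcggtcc
The 2 matches begin 0 and 11 bases from the start site. Of 15691 measured genes with a promoter in the RefSeq table, 9.02% held such a match, against 4.82% of the 83 called higher and 8.74% of the 103 called lower. A match describes letters in this window and is no evidence of binding.

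The cytokine genes *Lif*, *Osm* and *Il24* and the TNF superfamily ligands *Tnf*, *Lta* and *Tnfsf10* rose. Of 21 cytokines 3 rose and 0 fell, and of 13 TNF superfamily ligands 3 rose and 0 fell, so that 18 and 10 did not pass. The medians of these lists, 0.08 and 0.10, lay near 0. *Lif* and *Osm* encode ligands of the gp130 receptor family. *Lif* was at 8.09 to 9.75 (median 8.97) after AML medium and 7.01 to 8.69 (median 7.19) in fresh medium. Fresh replicate 7, at 8.69, lay above AML replicates 3, 6 and 7, and *Lif* rose 2.54-fold (1.34, SE 0.27, adjusted p = 0.0192). *Osm* was at 7.16 to 8.31 (median 7.64) against 6.2 to 7.68 (median 6.57) and rose by 0.99 (SE 0.22, adjusted p = 0.0331). *Il24*, a cytokine of the interleukin 10 family, had low levels, 4.49 to 6.75 (median 5.51) against 3.56 to 5.01 (median 3.94), and rose by 1.59 (SE 0.33, adjusted p = 0.026), with AML replicates 3, 6 and 7 inside the fresh range. *Tnf*, the inflammatory cytokine, was at 7.63 to 9.42 (median 8.58) after AML medium and 6.76 to 8.39 (median 7.03) in fresh medium. It lay above every fresh array in 4 of 7 AML arrays and rose by 1.24 (SE 0.26, adjusted p = 0.0267). *Lta*, its neighbour and relative lymphotoxin alpha, was at 8.48 to 10.46 (median 9.0) against 7.56 to 9.16 (median 7.91) and rose by 1.24 (SE 0.29, adjusted p = 0.0423). *Tnfsf10*, which encodes the death ligand TRAIL, rose by 0.34 (SE 0.08, adjusted p = 0.0423). Fresh replicate 7 was the highest fresh array for *Lif*, *Osm*, *Il24*, *Tnf* and *Lta*. Of the 6 risers *Lif* lost its call without fresh replicate 2 (adjusted p = 0.0523). The others lost it without any of 7 to 12 arrays, with adjusted p of 0.059 to 0.0748 for *Osm*, 0.0525 to 0.0612 for *Il24*, 0.0505 to 0.0673 for *Tnf*, 0.0525 to 0.0939 for *Lta* and 0.0525 to 0.0983 for *Tnfsf10*.

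Interferon gamma and interleukin 2 did not pass the test. *Ifng*, the signature cytokine of effector CD8+ T cells, was at 6.13 to 8.24 (median 7.35) after AML medium and 6.22 to 7.34 (median 6.78) in fresh medium, with a difference of 0.45 (SE 0.27, adjusted p = 0.476). Its AML arrays spread over more than 2 log2 units and took in the whole fresh range. *Il2*, the T cell growth factor, was at 2.85 to 3.25 (median 3.08) against 2.81 to 3.35 (median 2.99), with a difference of 0.04 (SE 0.09, adjusted p = 0.914). All these values lie below 3.67, the 25th percentile of mean level over all genes. Whether the probes detected *Il2* at all was not assessed.

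Granzyme A and a pair of granzyme inhibitors fell, while granzyme B and perforin did not pass. Of 16 genes of the cytotoxic granule list 1 rose and 3 fell, with a list median of -0.08. The riser was *Tnfsf10*, the death ligand already counted among the TNF superfamily ligands above. *Gzma* encodes the tryptase granzyme A. Its level was 4.91 to 7.97 (median 7.2) after AML medium and 8.09 to 9.65 (median 9.25) in fresh medium. Every AML array was lower than every fresh array, and AML replicates 4 and 5, at 4.91 and 5.16, were lowest, with the other 5 between 7.04 and 7.97. *Gzma* fell 4.69-fold (-2.23, SE 0.42, adjusted p = 0.0141). Leaving out AML replicates 4 and 5 gave -1.53 (adjusted p = 0.00874), but the call was lost in a limma fit with trend and robust estimation. *Serpinb9* encodes the inhibitor that shields killer cells from their own granzyme B. It was at 8.01 to 8.65 (median 8.35) against 8.64 to 9.19 (median 8.84) and fell by 0.54 (SE 0.10, adjusted p = 0.00997), with AML replicate 2 alone reaching the lowest fresh array. *Serpinb6b*, a serpin of the same clade, was at 8.88 to 9.68 (median 9.28) against 9.78 to 10.19 (median 9.97), without overlap, and fell by 0.68 (SE 0.11, adjusted p = 0.00449). All 3 were steady. *Gzmb* was at 11.05 to 11.74 (median 11.21) against 11.21 to 11.89 (median 11.43) and differed by -0.16 (SE 0.13, adjusted p = 0.622). *Prf1*, the pore former perforin, differed by -0.02 (SE 0.12, adjusted p = 0.971), and its sign turned when each array was centred on its median.

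Of 23 measured genes of the list hypoxia response beyond glycolysis 9 fell, 0 rose and 14 did not pass, with a median difference of -0.68. Of 18 genes of the list glucose uptake and glycolysis 2 fell and 0 rose, with a median of -0.45, and of 14 genes of the list lactate and pyruvate 2 fell and 0 rose, with a median of -0.09. In that order, 20, 16 and 5 genes of these lists had an unadjusted p under 0.05 with limma, against 14.8% over all genes. The difference was negative for 20 of 23, 18 of 18 and 11 of 14 genes. *Ak4* encodes a mitochondrial adenylate kinase. It was at 5.22 to 8.03 (median 6.52) after AML medium and 7.64 to 8.5 (median 8.07) in fresh medium and fell by 1.53 (SE 0.34, adjusted p = 0.0361). AML replicates 6 and 7, at 8.03 and 7.81, lay within the fresh range, and AML replicates 4 and 5 were lowest. *Ndrg1*, a stress gene known from hypoxic cells, was at 7.36 to 10.02 (median 8.63) against 9.77 to 10.24 (median 10.04) and fell by 1.39 (SE 0.30, adjusted p = 0.0319). *Plod2*, a lysyl hydroxylase of collagen, was at 5.31 to 7.47 (median 6.01) against 7.21 to 7.84 (median 7.62) and fell by 1.25 (SE 0.26, adjusted p = 0.026). *Mxi1* encodes an antagonist of MYC. It was at 6.5 to 8.15 (median 7.48) against 8.26 to 8.57 (median 8.42), without overlap, and fell by 0.97 (SE 0.20, adjusted p = 0.026). The 2 steady genes of the list were *Ankrd37*, an ankyrin repeat protein induced by HIF-1, and *Higd1a*, a protein of the inner mitochondrial membrane. *Ankrd37* was at 6.2 to 7.83 (median 6.84) against 7.98 to 8.54 (median 8.2), without overlap, and fell by 1.23 (SE 0.21, adjusted p = 0.00888). *Higd1a* was at 7.7 to 8.51 (median 7.91) against 8.42 to 8.75 (median 8.65), with AML replicate 6 inside the fresh range, and fell by 0.61 (SE 0.12, adjusted p = 0.0152). It did not pass without AML replicates 4 and 5 together (adjusted p = 0.0833). Named after their values were seen, the other 3 called members were *Ero1a*, an oxidase of the endoplasmic reticulum, at -0.89 (SE 0.20, adjusted p = 0.0362), *Fam162a* at -0.74 (SE 0.17, adjusted p = 0.0363) and the mitophagy receptor *Bnip3l* at -0.77 (SE 0.19, adjusted p = 0.0492). Outside the list, *Mgarp*, a mitochondrial protein of the HIF-1 response, was at 3.44 to 6.33 (median 5.3) against 6.52 to 6.86 (median 6.63) and fell by 1.52 (SE 0.33, adjusted p = 0.0319).

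Several of the best known members of these lists did not pass. *Egln3*, the prolyl hydroxylase that marks HIF-1 alpha for decay and is itself a HIF-1 target, was at 7.28 to 10.52 (median 9.3) after AML medium and 10.28 to 10.83 (median 10.72) in fresh medium. AML replicates 1 to 5 lay below all fresh arrays, and replicates 6 and 7 among them at 10.5 and 10.52, and the difference was -1.46 (SE 0.38, adjusted p = 0.0657). *Slc2a3*, the glucose transporter GLUT3, did pass. It was at 7.58 to 10.2 (median 8.94) against 10.12 to 10.63 (median 10.34) and fell by 1.38 (SE 0.30, adjusted p = 0.0324). *Slc2a1*, the glucose transporter GLUT1, was at 9.24 to 11.16 (median 10.21) against 10.95 to 11.31 (median 11.19), a difference of -0.92 (SE 0.22, adjusted p = 0.0503). *Pfkfb3*, whose product makes the activator of phosphofructokinase, fell by 0.43 (SE 0.09, adjusted p = 0.0261) without overlap, at 7.31 to 7.88 (median 7.45) against 7.92 to 8.08 (median 7.99). *Hk2*, the inducible hexokinase, differed by -0.69 (SE 0.19, adjusted p = 0.0764), *Aldoa*, aldolase, by -0.47 (SE 0.11, adjusted p = 0.0505) and *Ldha*, lactate dehydrogenase, by -0.18 (SE 0.08, adjusted p = 0.321). *Slc16a3*, the lactate exporter MCT4, was at 7.01 to 10.22 (median 9.13) against 10.01 to 10.41 (median 10.3), a difference of -1.35 (SE 0.36, adjusted p = 0.0686). *Bsg*, the chaperone of lactate transporters, fell by 0.49 (SE 0.11, adjusted p = 0.0324), and *Pdk1*, which switches off pyruvate dehydrogenase, by 0.51 (SE 0.11, adjusted p = 0.0261). *Pdk1* lay below every fresh array in 6 of 7 AML arrays. Of 16 genes of the pentose phosphate and NRF2 list 1 fell, *Hmox1*, the haem oxygenase, by 0.71 (SE 0.16, adjusted p = 0.0349).

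The fall of these lists differed between arrays. Relative to the fresh mean, the mean of the hypoxia response beyond glycolysis list was -0.76, -0.62 and -0.75 in AML replicates 1 to 3, -1.16 and -1.36 in replicates 4 and 5, and -0.09 and -0.14 in replicates 6 and 7. Fresh arrays ran from -0.15 to 0.10. For the glucose uptake and glycolysis list the AML arrays were at -0.58, -0.53, -0.58, -0.89, -1.11, 0.02 and -0.10 in the order of their numbers, against -0.13 to 0.08 in fresh arrays. AML replicates 6 and 7 were thus within the fresh range for both lists. Called members of the hypoxia list numbered 16 without AML replicate 6, 15 without AML replicate 7 and 2 to 6 without any other array. Those of the glycolysis list numbered 13, 9 and 0 to 2. Over all 19505 genes the same fits called 498, 380 and 91 to 197. With all 21 arrays in the fit 15 members of the hypoxia list and 10 of the glycolysis list fell, among them *Slc2a1* (adjusted p = 0.0169), *Aldoa* (0.0111) and *Egln3* (0.0234), and *Slc16a3* of the lactate list (0.024) fell too. Over all genes that fit called 2.77%. Without AML replicates 4 and 5 the 2 lists had 3 and 0 called members and medians of -0.46 and -0.29. *Slc2a1*, *Slc16a3*, *Hk2*, *Aldoa* and *Egln3* passed without AML replicate 6 or without AML replicate 7, with adjusted p of 0.0109 to 0.0113, 0.0181 to 0.026, 0.0074 to 0.0447, 0.021 to 0.0213 and 0.0182 to 0.021. Calls were lost without any of 11 arrays for *Ak4* (adjusted p 0.0546 to 0.0791), 12 for *Ndrg1* (0.0524 to 0.0702), 8 for *Plod2* (0.0525 to 0.0584), 5 for *Mxi1* (0.0518 to 0.0611), 8 for *Mgarp* (0.0536 to 0.0714) and 10 for *Slc2a3* (0.0546 to 0.0725). The same held without any of 8 for *Pfkfb3* (0.0501 to 0.0638), 10 for *Bsg* (0.05 to 0.0716), 6 for *Pdk1* (0.0501 to 0.0629) and 11 for *Hmox1* (0.053 to 0.0806).

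**Figure D3:**
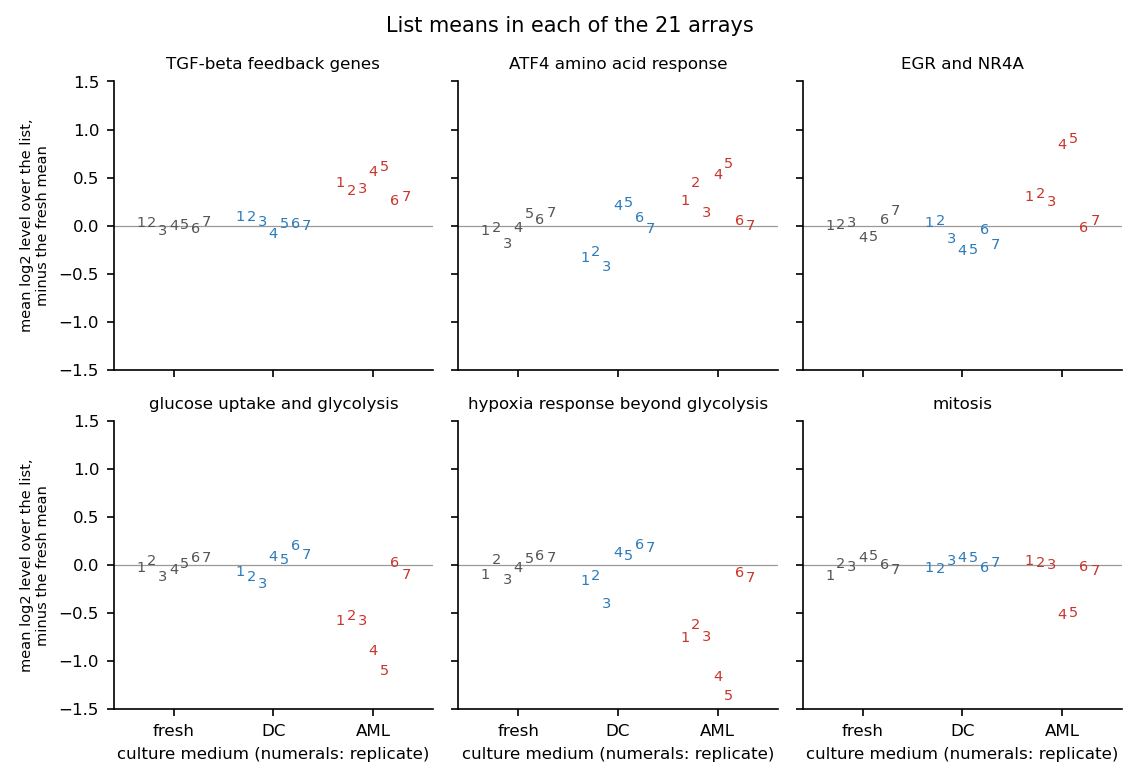
Mean log2 level over the members of 6 gene lists, minus the mean of the fresh arrays, in each of the 21 arrays, with the replicate number as the plotting symbol. AML replicates 4 and 5 lie farthest from fresh medium for hypoxia and glycolysis genes and replicates 6 and 7 within its range, whereas all 7 AML arrays lie above all fresh arrays for TGF-beta feedback genes.

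The promoters of *Ankrd37* and *Mgarp* are shown for the core of the HIF motif (ACGTG, both strands, in capitals). *Ankrd37* fell in all 7 AML arrays below fresh medium, and *Mgarp* fell more than any other named gene outside the lists. Both windows run from 250 bases before to 50 after the start site listed by RefSeq on GRCm38.p6, on the minus strand, at chr8:45999801-46000100 and chr3:51396498-51396797.
Ankrd37: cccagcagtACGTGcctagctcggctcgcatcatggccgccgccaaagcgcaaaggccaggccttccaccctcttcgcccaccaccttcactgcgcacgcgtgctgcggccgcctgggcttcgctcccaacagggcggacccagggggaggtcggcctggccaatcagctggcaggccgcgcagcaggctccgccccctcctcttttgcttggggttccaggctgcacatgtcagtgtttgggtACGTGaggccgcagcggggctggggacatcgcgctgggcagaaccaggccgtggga
Mgarp: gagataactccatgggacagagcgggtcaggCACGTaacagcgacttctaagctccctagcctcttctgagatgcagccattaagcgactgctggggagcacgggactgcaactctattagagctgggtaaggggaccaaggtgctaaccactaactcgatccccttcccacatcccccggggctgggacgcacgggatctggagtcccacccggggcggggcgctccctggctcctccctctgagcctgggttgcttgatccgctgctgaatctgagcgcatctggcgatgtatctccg
The matches begin -241 and -6 bases from the start site in *Ankrd37* and -219 in *Mgarp*, where the motif lies on the other strand. Of the 103 genes called lower with a promoter in the table, 37.9% held the motif, against 25.3% of the 83 called higher and 24.0% of all 15691. This is a description of letters, without a test.

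Called members of the amino acid response and amino acid transporters changed in both directions. Of 22 genes of the ATF4 amino acid response list 3 rose and 1 fell, with a median of 0.34. Of 17 amino acid transporters 3 rose and 1 fell, with a median of 0.31. The difference was positive for 18 of 22 and 11 of 17 genes. Unadjusted p was under 0.05 with limma for 14 and 13 of them, against 14.8% over all genes. *Chac1* encodes an enzyme that degrades glutathione. It was at 5.49 to 7.39 (median 6.37) after AML medium and 5.0 to 5.77 (median 5.33) in fresh medium, where AML replicates 6 and 7 lay among the fresh arrays, and rose by 1.05 (SE 0.24, adjusted p = 0.0363). *Asns*, asparagine synthetase, was at 10.31 to 11.05 (median 10.86) against 9.94 to 10.61 (median 10.16) and rose by 0.59 (SE 0.12, adjusted p = 0.0204). *Shmt2*, the mitochondrial serine hydroxymethyltransferase, rose by 0.50 (SE 0.12, adjusted p = 0.0439). *Vldlr*, a lipoprotein receptor that ATF4 can induce, went the other way, at 5.21 to 6.36 (median 5.91) against 6.27 to 7.13 (median 6.55), and fell by 0.86 (SE 0.18, adjusted p = 0.0278). The largest rise among the transporters was that of *Slc7a3*, which imports arginine and lysine. Its level was 7.86 to 9.48 (median 8.71) against 7.28 to 8.03 (median 7.42). Fresh replicate 5, at 8.03, was above AML replicate 7 at 7.86, and *Slc7a3* rose by 1.18 (SE 0.21, adjusted p = 0.0108) and was steady. *Slc1a5*, the glutamine transporter, rose by 0.50 (SE 0.11, adjusted p = 0.028), and *Slc6a9*, a glycine transporter, by 0.52 (SE 0.12, adjusted p = 0.0325). *Slc43a1* carries branched-chain amino acids by facilitated diffusion. It was at 7.84 to 8.88 (median 8.55) against 8.88 to 9.86 (median 9.53) and fell by 0.97 (SE 0.18, adjusted p = 0.0157), and was steady. *Rragd* encodes a Rag GTPase, which brings the kinase mTORC1 to the lysosome when amino acids are present. At 6.55 to 7.04 (median 6.81) against 5.46 to 6.25 (median 5.86) it had no overlap and rose by 0.97 (SE 0.11, adjusted p = 0.000273), and it too was steady.

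*Asns* and *Shmt2* lost their calls with all 21 arrays in the fit (adjusted p = 0.083 and 0.0811). *Asns* also lost its call without AML replicate 4 (adjusted p = 0.0521), *Chac1* without any of 11 arrays (0.0511 to 0.0844) and *Shmt2* without any of 11 (0.0509 to 0.103). *Vldlr*, *Slc1a5* and *Slc6a9* lost theirs without any of 7, 6 and 10 arrays, at adjusted p of 0.0502 to 0.0702, 0.0525 to 0.0658 and 0.0506 to 0.0721. Without AML replicates 4 and 5 no member of the ATF4 amino acid response list passed, and its median was 0.25.

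The promoters of *Chac1* and *Asns*, the 2 called ATF4 genes with the smallest adjusted p that rose, are shown for the composite ATF4 motif (TGATGNAA, both strands, in capitals). RefSeq places them on GRCm38.p6 at chr2:119350992-119351291, plus strand, and chr6:7693160-7693459, minus strand.
Chac1: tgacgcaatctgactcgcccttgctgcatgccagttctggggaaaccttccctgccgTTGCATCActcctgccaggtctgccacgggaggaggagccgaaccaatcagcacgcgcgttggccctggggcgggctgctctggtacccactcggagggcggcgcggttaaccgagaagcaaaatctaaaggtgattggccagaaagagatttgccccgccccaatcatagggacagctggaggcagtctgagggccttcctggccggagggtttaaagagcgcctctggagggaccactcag
Asns: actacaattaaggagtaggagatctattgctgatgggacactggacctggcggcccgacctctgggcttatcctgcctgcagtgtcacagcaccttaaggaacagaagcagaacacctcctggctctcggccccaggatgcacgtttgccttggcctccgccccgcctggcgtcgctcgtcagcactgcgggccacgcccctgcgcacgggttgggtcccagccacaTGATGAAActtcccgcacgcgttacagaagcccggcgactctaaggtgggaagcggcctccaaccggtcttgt
The match begins -193 bases from the listed start site in *Chac1*, on the other strand, and -23 in *Asns*. The motif stood in 3.95% of all 15691 promoters, in 6.02% of those of genes called higher and in 1.94% of those of genes called lower.

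**Figure D4:**
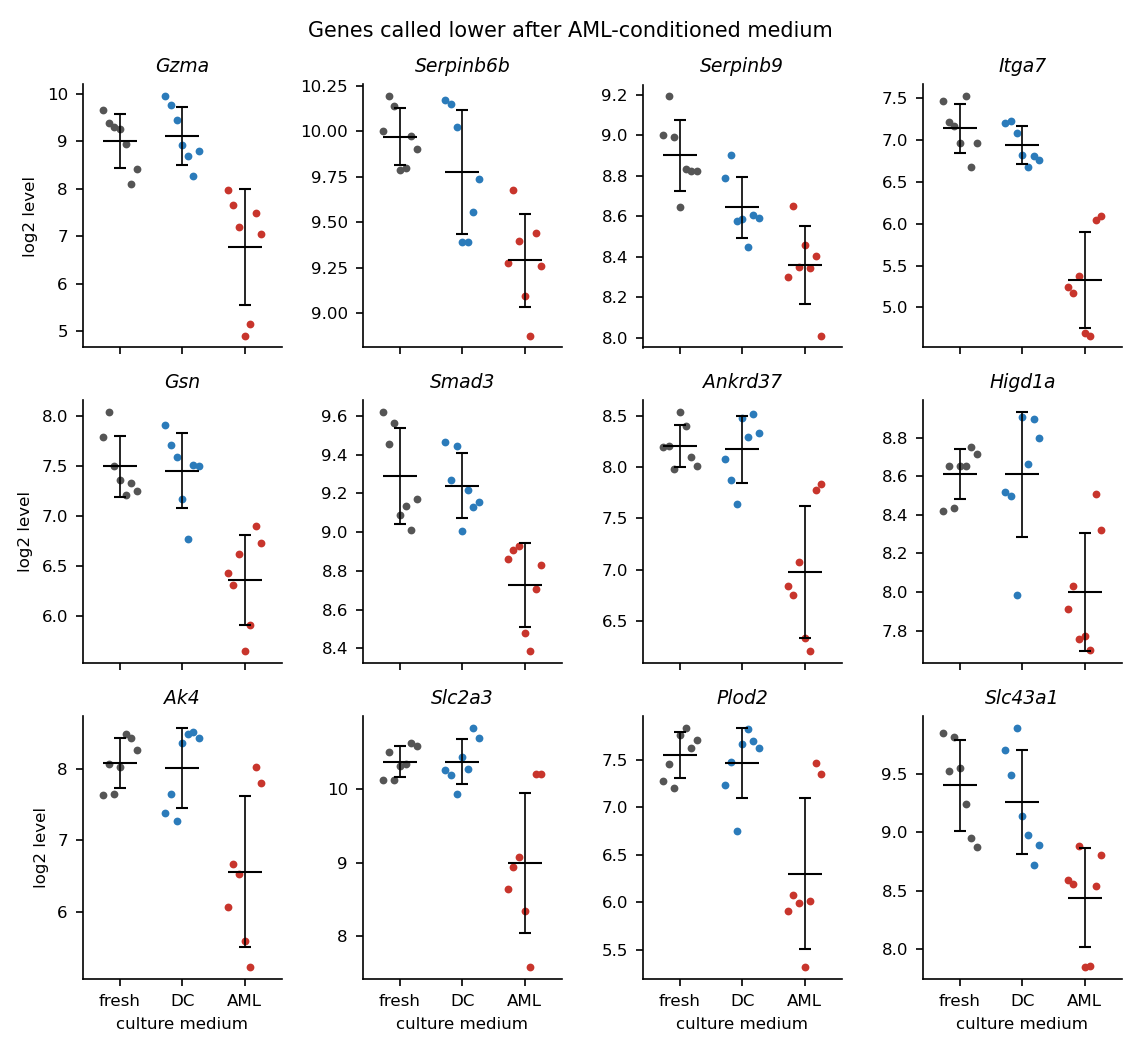
Log2 levels of 12 genes called lower after AML medium, drawn as for the risers with the mean and SD of 7 arrays. *Gzma*, *Serpinb6b*, *Itga7*, *Gsn*, *Smad3* and *Ankrd37* do not overlap between AML and fresh medium, whereas AML replicates 6 and 7 of *Ak4*, *Slc2a3* and *Plod2* lie among or next to the fresh arrays.

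Transcription factors that antigen receptor signals induce did not pass. Of 13 genes of the EGR and NR4A list 0 rose and 0 fell with limma, 6 had an unadjusted p under 0.05 (14.8% over all genes), and the list median was 0.16. The same test gave *Egr1*, the first responder of this family, a difference of 1.24 (SE 0.33, adjusted p = 0.0721), with levels of 8.3 to 10.31 (median 8.91) after AML medium and 6.86 to 8.61 (median 8.03) in fresh medium. AML replicates 4 and 5 were highest, at 10.3 and 10.31, and fresh replicates 4 and 5 lowest, at 6.86 and 7.01. *Egr2* and *Egr3*, which restrain T cell activation, differed by 0.75 (SE 0.24, adjusted p = 0.13) and 0.68 (SE 0.25, adjusted p = 0.188), and *Nr4a1*, a reporter of receptor signal strength, by 0.86 (SE 0.25, adjusted p = 0.0985). The list mean lay 0.83 and 0.90 above fresh medium in AML replicates 4 and 5 and between -0.02 and 0.33 in the other 5. *Egr1* passed without AML replicate 6 (adjusted p = 0.0381) and *Nr4a1* without AML replicate 7 (0.043), and both passed with all 21 arrays in the fit (0.035 and 0.0372). Among 15 ERK feedback genes 1 rose, *Dusp2*, a nuclear phosphatase of ERK, from 6.32 to 6.88 (median 6.58) to 7.04 to 7.9 (median 7.13). Its arrays did not overlap, and the rise of 0.72 (SE 0.14, adjusted p = 0.0185) was steady. None of 16 AP-1 and immediate early genes or 15 NF-kB subunits and inhibitors passed with limma. Unadjusted p was under 0.05 for 9 and 6 of them, against 14.8% over all genes, and the medians were 0.23 and 0.18. With all 21 arrays in the fit 1 NF-kB gene rose, where 2.77% of all genes were called in either direction. *Myc*, the growth regulator, differed by 0.40 (SE 0.11, adjusted p = 0.0868). Of 22 MYC and ribosome biogenesis genes 1 rose, the nucleolar protein gene *Nolc1*, by 0.68 (SE 0.16, adjusted p = 0.0423), a call lost without any of 9 arrays (adjusted p 0.0543 to 0.0961) and with all 21 arrays in the fit (0.0607).

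*Tox* was the only 1 of 17 genes of the inhibitory receptor list that passed, and it rose. It encodes a nuclear factor that exhausted CD8+ T cells keep high. Its level was 8.98 to 9.56 (median 9.37) after AML medium and 8.63 to 8.99 (median 8.81) in fresh medium. AML replicate 6, at 8.98, alone lay below the highest fresh array, replicate 3 at 8.99, and the rise of 0.52 (SE 0.09, adjusted p = 0.00968) was steady. *Pdcd1*, the gene of the inhibitory receptor PD-1, was at 5.55 to 6.12 (median 5.96) against 5.56 to 5.92 (median 5.85) and differed by 0.06 (SE 0.09, adjusted p = 0.85). Among 14 costimulatory receptors 1 rose, *Slamf1*, by 0.40 (SE 0.09, adjusted p = 0.0363). Among 19 effector and memory regulators 1 rose, *Eomes*, a T-box factor of memory and exhausted cells. It was at 8.64 to 9.8 (median 9.32) against 8.46 to 8.72 (median 8.56) and rose by 0.71 (SE 0.16, adjusted p = 0.0363), with AML replicates 6 and 7 below fresh replicates 3 and 7. Of 17 naive and quiescence genes 1 rose, *Igfbp4*, a binding protein of insulin-like growth factors found in naive T cells. At 7.76 to 8.21 (median 7.97) against 6.67 to 7.63 (median 7.12) it did not overlap, and it rose by 0.83 (SE 0.12, adjusted p = 0.00246), steadily. *Slamf1* lost its call without any of 10 arrays (adjusted p 0.0587 to 0.0806) and *Eomes* without any of 11 (0.0583 to 0.0806). The lowest differences among the effector and memory regulators and in the inhibitory receptor list were -1.27 and -0.80, and neither passed. With all 21 arrays in the fit 2 members of the first list and 1 of the second fell, and 1 member of each rose. That fit called 2.77% of all genes in either direction.

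The regulatory T cell list also names *Foxp3*, *Nrp1* and *Folr4*, which were not among the genes measured. Of 13 regulatory T cell genes measured 2 rose and 0 fell, and the median of 0.53 was the highest among the 41 pathway lists. One of the 2 was *Itgae*, described above. The other was *Nt5e*, which encodes the ecto-nucleotidase CD73 that makes adenosine. *Nt5e* was at 6.06 to 7.09 (median 6.34) after AML medium and 5.57 to 6.13 (median 5.96) in fresh medium and rose by 0.63 (SE 0.15, adjusted p = 0.0432), a call lost without any of 11 arrays (adjusted p 0.0612 to 0.096). Regulatory T cells are mostly CD4+, and *Cd4* was at 7.8 to 9.03 (median 8.64) against 7.25 to 8.15 (median 7.76). Its rise of 0.79 was lost without any of 9 arrays (adjusted p 0.0513 to 0.064). The part of CD4+ cells in the values of this list was not tested.

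Among 16 genes of the Toll-like receptor list 1 rose, *Tlr7*, the endosomal sensor of single-stranded RNA. Its level was 8.56 to 9.6 (median 9.02) after AML medium and 7.34 to 7.96 (median 7.78) in fresh medium. All 7 AML arrays were higher than all fresh arrays, and *Tlr7* rose 2.6-fold (1.38, SE 0.15, adjusted p = 0.000133). The rise was 1.44 without AML replicates 4 and 5. Of 20 type I interferon genes 3 rose and 1 fell, with a list median of 0.11. *Ifit3*, an antiviral effector, was at 7.11 to 8.71 (median 8.06) against 6.52 to 6.98 (median 6.9), without overlap, and rose by 1.12 (SE 0.20, adjusted p = 0.0114). *Ifit3b*, a near copy of *Ifit3* whose probes may share its transcripts, rose by 1.15 (SE 0.24, adjusted p = 0.0261) and is uncertain for that reason. *Rtp4*, a chaperone that interferons induce, was at 5.28 to 6.25 (median 5.75) against 4.4 to 5.41 (median 4.86) and rose by 0.87 (SE 0.15, adjusted p = 0.00968), and *Ifit3* and *Rtp4* were steady. *Oasl2* rose by 0.52 (SE 0.12, adjusted p = 0.0423). *Ifih1*, the cytosolic sensor of double-stranded RNA MDA5, fell by 0.42 (SE 0.10, adjusted p = 0.0421). The calls of *Ifit3b*, *Oasl2* and *Ifih1* were lost without any of 6, 10 and 11 arrays, at adjusted p of 0.0501 to 0.061, 0.0557 to 0.0968 and 0.0548 to 0.0914. Among 16 interferon-gamma genes none passed with limma, 4 had an unadjusted p under 0.05 (14.8% over all genes), and their median was 0.07. With all 21 arrays in the fit 2 rose, against 2.77% of all genes called in either direction.

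The remaining genes among the 15 largest rises and 15 largest falls belong to none of the lists. *Aqp9*, a channel for water and glycerol, was at 6.29 to 8.05 (median 7.05) after AML medium and 5.48 to 6.68 (median 6.14) in fresh medium and rose by 0.93 (SE 0.22, adjusted p = 0.0423). Among the falls, *Cym*, the protease chymosin, was at 4.96 to 6.1 (median 5.83) against 6.49 to 7.45 (median 6.92). It did not overlap and fell by 1.25 (SE 0.18, adjusted p = 0.00224). *Plpp2*, a phosphatase of lipid messengers, was at 4.27 to 5.96 (median 4.84) against 5.89 to 6.41 (median 6.19) and fell by 1.13 (SE 0.21, adjusted p = 0.0157). *Cym* and *Plpp2* were steady. *Nrn1*, neuritin, was at 6.74 to 8.42 (median 7.83) against 8.41 to 9.13 (median 8.75) and fell by 1.07 (SE 0.23, adjusted p = 0.0302). *Dntt*, the DNA polymerase that adds bases during antigen receptor rearrangement, was at 3.87 to 5.83 (median 5.1) against 5.72 to 6.28 (median 6.04) and fell by 1.06 (SE 0.25, adjusted p = 0.0423). *Cables1*, a binding partner of cyclin-dependent kinases, fell by 1.21 (SE 0.29, adjusted p = 0.0477), with AML replicates 4 and 5 at 5.05 and 5.0 and the other 5 between 6.46 and 7.1. Without any of 10, 10, 12 and 11 arrays the calls of *Aqp9*, *Nrn1*, *Dntt* and *Cables1* were lost, at adjusted p of 0.0609 to 0.0921, 0.0501 to 0.0643, 0.0507 to 0.0927 and 0.0524 to 0.0988.

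In 12 further lists no member passed with limma. The counts at an unadjusted p under 0.05 that follow stand beside 14.8% over all genes, and several lie at or below that share. Unadjusted p was under 0.05 for 9 of 16 annexins and S100 proteins, 5 of 14 genes of metallothioneins and zinc, 2 of 14 NK-type lectin receptors, 6 of 13 prostaglandin and cAMP genes, 4 of 16 chaperones of the unfolded protein response and 1 of 9 polyamine genes. The same held for 5 of 16 genes of fatty acid oxidation, 2 of 19 of cholesterol and fatty acid synthesis, 1 of 21 of DNA replication, 7 of 23 of mitosis, 6 of 15 apoptosis regulators and 3 of 13 p53 targets. With all 21 arrays in the fit 4 annexins and S100 proteins, 1 mitosis gene and 1 chaperone of the unfolded protein response fell, and 2 apoptosis regulators, 1 gene of metallothioneins and zinc and 1 of prostaglandin and cAMP rose. That fit called 2.77% of all genes in either direction, and 1 called member is no result about its list. The lowest medians of the 12 lists were -0.17 for fatty acid oxidation and -0.15 for mitosis. Across the mitosis list AML replicates 4 and 5 were at -0.52 and -0.50 relative to the fresh mean, and the other 5 AML arrays between -0.06 and 0.05. Those 2 arrays alone lay below the fresh range of -0.11 to 0.10. Single members of the annexin and metallothionein lists had large differences with a wide spread. *Anxa2*, annexin A2, and *Mt2*, a metallothionein, were named after their values were seen and differed by -1.69 (SE 0.47, adjusted p = 0.0822) and -1.15 (SE 0.56, adjusted p = 0.348).

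**Figure D5:**
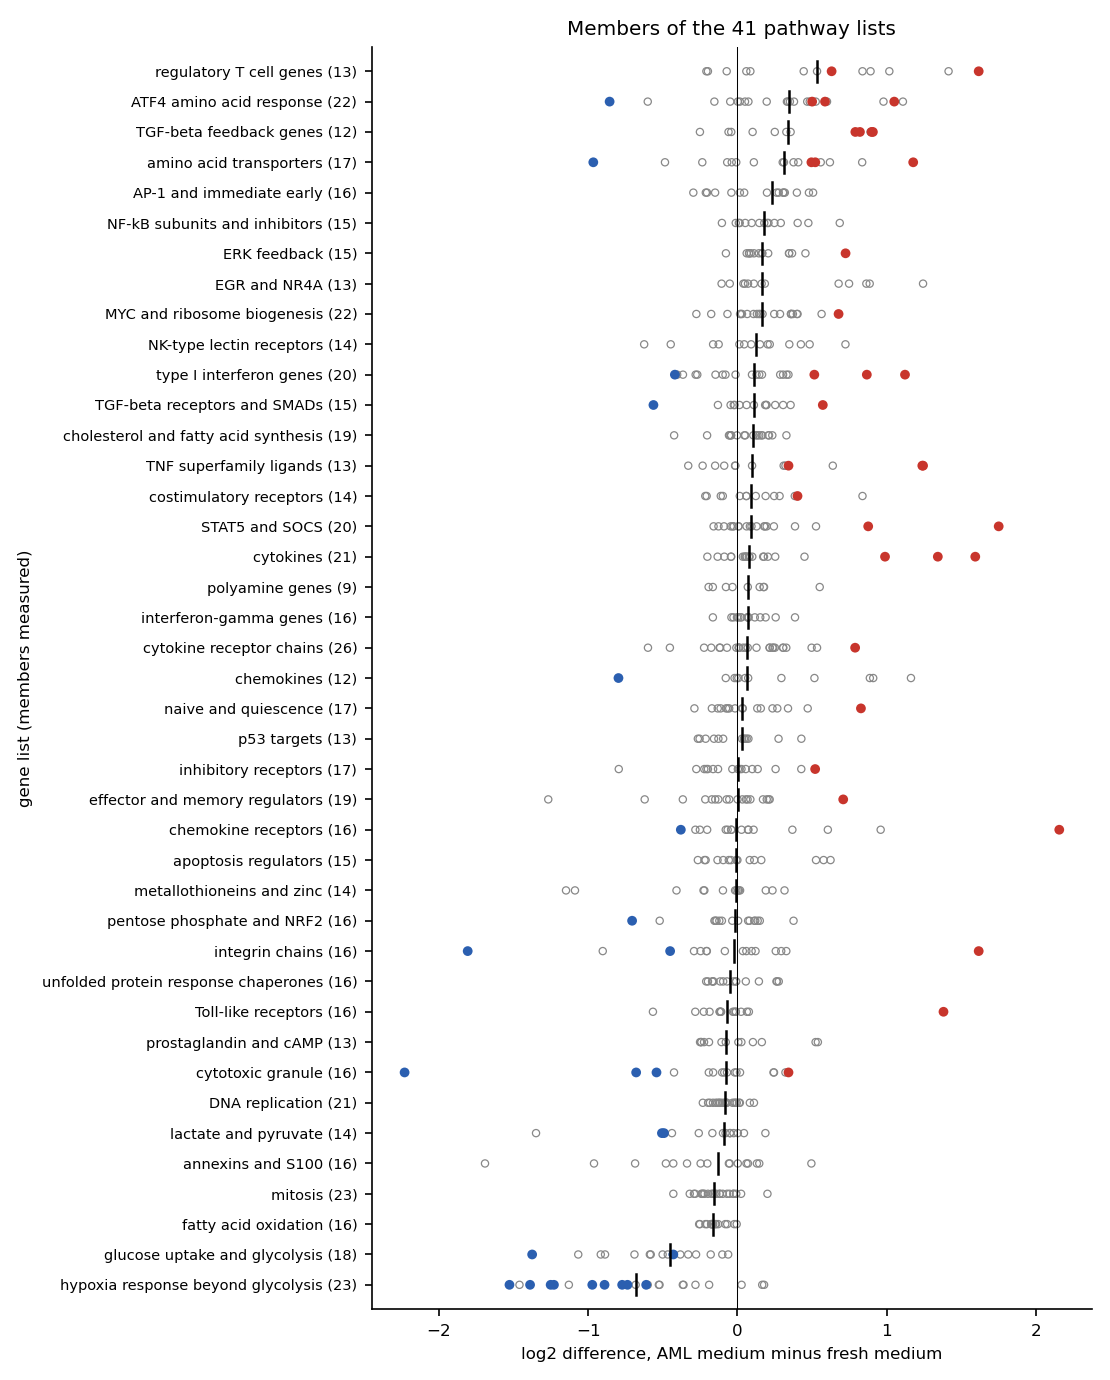
Log2 differences of all measured members of the 41 pathway lists, ordered by the list median (vertical bar), with genes called higher in red, called lower in blue and all others open. Regulatory T cell genes have the highest median at 0.53 and hypoxia genes the lowest at -0.68, and most members of most lists lie within 0.5 of 0.

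The series' other conditioned medium gave no call against fresh medium. With limma 0 of 19505 genes passed between DC and fresh medium, with 1198 (6.14%) at an unadjusted p under 0.05 and 3 in a fit blocked on replicate number, while 249 passed between AML and DC medium (1.28%). The comparison of AML with DC medium uses the same AML arrays as that with fresh medium, and is no independent repeat of it. *Ski* was 0.78 (SE 0.06, adjusted p = 4.05e-06) higher after AML than after DC medium, where its level was 7.12 to 7.31 (median 7.22), and *Pmepa1* was 0.95 (SE 0.09, adjusted p = 3.61e-05) higher. *Tlr7* was 1.49 (SE 0.14, adjusted p = 3.62e-05) higher and *Ccr8* 1.97 (SE 0.34, adjusted p = 0.01) higher after AML than after DC medium. *Gzma* was at 8.26 to 9.94 (median 8.93) after DC medium and differed between AML and DC medium by -2.34 (SE 0.42, adjusted p = 0.0129), and *Itga7* by -1.61 (SE 0.20, adjusted p = 0.000512). *Ankrd37* differed by -1.2 (SE 0.23, adjusted p = 0.0149) and *Slc2a3* by -1.38 (SE 0.31, adjusted p = 0.0379). Among the 15 largest falls *Ak4*, *Ndrg1*, *Cables1*, *Plpp2*, *Nrn1*, *Dntt* and *Mxi1* did not pass between AML and DC medium (adjusted p 0.0505 to 0.177). Of the hypoxia response beyond glycolysis list 4 members were called lower than after DC medium, and 9 lower than in fresh medium. *Itgae*, *Chac1* and *Aqp9*, all among the 15 largest rises, did not pass between AML and DC medium. For *Itgae* the level after DC medium was 6.75 to 8.14 (median 7.15). DC replicates 1 to 3, at 7.64 to 8.14, lay near the AML arrays, and DC replicates 4 to 7, at 6.75 to 7.15, near the fresh arrays. The DC mean of *Itgae* stood 0.91 over fresh medium, and its difference between AML and DC medium was 0.71 (SE 0.19, adjusted p = 0.0758). For *Chac1* and *Aqp9* that difference was 0.91 (SE 0.24, adjusted p = 0.064) and 0.54 (SE 0.24, adjusted p = 0.284). *Egr1*, which did not pass against fresh medium, differed between AML and DC medium by 1.81 (SE 0.30, adjusted p = 0.00831). *Serpinb9* and *Serpinb6b* differed between AML and DC medium by -0.28 (SE 0.09, adjusted p = 0.132) and -0.48 (SE 0.14, adjusted p = 0.101) and did not pass there.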

How the data were processed

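The authors deposited log2 expression values per transcript cluster. Their processing notes name RMA and the package oligo. Versions and genome build are not given in the sources used here. RMA subtracts background, equalizes the distributions of the arrays and combines the probes of a cluster. It gives no detection call, and differences of low values are compressed. Symbols came from the platform annotation and were checked through gene identifiers against a table of GRCm38.p6, which changed 0 of them.

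The test was limma (version 3.58.1, under R 4.3.3, lmFit and eBayes, two-sided) on the 14 arrays of the 2 media, since the AML arrays spread more than the others for many called genes, and adjusted by the Benjamini-Hochberg method over 19505 genes. AML against DC and DC against fresh medium were fitted the same way. The code was tested on simulated data. No filter on level was applied. If the 7 samples of a group did not come from separate cultures or mice, p-values measure only the spread between these samples. The number of arrays limits the precision, with a median SE of 0.09.

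Named genes are the 15 strongest risers and 15 strongest fallers among called genes (clone names, small RNAs and receptor segments left out), up to 4 called members per direction of each of 52 gene lists, and 38 genes fixed by name. Members, lists and rules were chosen with earlier results of these data known. Promoters are those of RefSeq, and 186 of the 246 called genes had one. Alternatives were single-array omissions, other sets of arrays, the replicate number as a block or random effect, other normalizations and filters, and other limma settings. Of the named genes, *Tnfsf10*, *Itgae*, *Eomes*, *Il2ra* and *Myc* stand in 2 lists each.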

Additional observations from a re-analysis of the deposited data

Results flagged for a closer look

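For 7 of 172 combinations of a named gene and a medium, a single array stood far from the other 6, by Dixon's test of the gap to the nearest array. Chance alone gives such a gap in about 1 of 20 groups. In fresh medium *Il24* was at 5.01 in replicate 7, above the next array at 4.04. *Skil* was at 7.5 in fresh replicate 1, below the next at 7.87, and *Pdcd1* at 5.56 in the same array, below the next at 5.82. Fresh replicate 3 was lowest for *Slc16a3*, at 10.01 against 10.26 in the next array, and for *Slc2a1*, at 10.95 against 11.16. After AML medium replicate 2 was highest for *Il2ra*, at 9.52 against 9.1, and for *Smad7*, at 7.37 against 7.16.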

How the results depend on the processing

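The count of 246 called genes (114 higher, 132 lower, 26 at 2-fold or more) depended on which arrays entered the fit and on the terms and settings of the model. With all 21 arrays it was 541 (253 higher, 288 lower, 41 at 2-fold or more), and with the replicate number as a random effect 432 (193 higher, 239 lower). A term for replicates 1 to 3 and 4 to 7 gave 445 (223 higher, 222 lower). Replicates 4 to 7 alone gave 8 (7 higher, 1 lower, 2 at 2-fold or more). Replicates 1 to 3 alone gave 194 (105 higher, 89 lower, 60 at 2-fold or more). Limma with trend and robust estimation gave 11 at 2-fold or more. Leaving out AML replicates 4 and 5 together left 74 (42 higher, 32 lower, 8 at 2-fold or more). Single-array omissions gave 91 to 498 called genes, with 50 to 225 higher, 41 to 273 lower and 12 to 60 at 2-fold or more. The cause was not tested. AML against DC medium gave 249 calls, 466 with all 21 arrays, and 93 to 588 in the omissions.

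Arrays of 1 replicate number in the AML and fresh groups deviated from their group means with correlations of -0.11 to 0.21, and 3 of 7 pairs lay above 0.1. That 4 of 7 AML arrays correlated best with the fresh array of their own number is a hint from the data, not from the design, and since not every pair exceeded 0.1 the numbers were not taken to pair the samples. A fit with a replicate block called 307 genes (150 higher, 157 lower), among them 190 of the 246. Named genes not called with that replicate block were *Lta*, *Osm*, *Aqp9*, *Socs2*, *Nt5e*, *Oasl2*, *Slamf1*, *Cxcr4*, *Itgb1*, *Dntt* and *Cables1* (adjusted p 0.0506 to 0.0921), and *Hk2*, *Slc2a1* and *Egln3* were called (0.027, 0.0483 and 0.0486). The hypoxia and glycolysis lists then had 13 and 7 members called lower. The replicate block gave 593 calls for AML against DC medium and 3 for DC against fresh medium.

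Of the 66 called genes named here, 5 kept their call in all 27 alternatives (*Itgae*, *Tlr7*, *Rragd*, *Ski* and *Skil*), and 26 kept it in all 14 single-array omissions of the AML and fresh groups. With replicates 4 to 7 alone only those 5, *Ldlrad4* and *Igfbp4* kept it. Without AML replicates 4 and 5 together the steady genes *Higd1a*, *Slc43a1* and *Plpp2* lost it (adjusted p 0.0833, 0.0627 and 0.0725). *Mxi1*, *Mgarp* and *Cables1*, which were not steady, kept it there (0.0324, 0.0393 and 0.0456). Limma with trend and robust estimation no longer called *Gzma*, *Lif*, *Osm*, *Il24*, *Tnf*, *Lta*, *Socs2*, *Ccl5*, *Ifit3b*, *Chac1* and *Aqp9*. Nor did that setting call *Ak4*, *Ndrg1*, *Plod2*, *Mxi1*, *Mgarp*, *Slc2a3*, *Nrn1*, *Dntt* and *Cables1*, while *Aldoa* passed there. Among the 86 named genes, signs turned only for 4 that were not called. *Pdcd1* was at -0.027 and *Cd8a* at -0.016 without AML replicates 4 and 5. With replicates 1 to 3 alone *Cd8a* was at -0.042 and *Il2* at -0.057. *Prf1* was at 0.0072 with each array centred on its median and at 0.12 with replicates 4 to 7 alone, and single-array omissions gave it -0.10 to 0.041. The deposited values hold no signal over background, so what dim probes can show was not assessed.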
